A study of Mus musculus with 32 samples.

Results

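The ionotropic glutamate receptor subunits of the AMPA and NMDA classes were followed in the spinal cord of mice that had been injured or only sham-operated. Their genes were taken by symbol from the rows of the count table, as Gria1, Gria2, Gria3 and Gria4 for the AMPA class and Grin1, Grin2a, Grin2b, Grin2c, Grin2d and Grin3a for the NMDA class. They are 10 of the 23420 genes of the table, and all 10 passed the filter on low counts that left 16314 genes for testing.

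AMPA receptors are assemblies of the subunits GluA1 to GluA4, encoded by Gria1 to Gria4, and carry the fast excitatory current at most synapses of the central nervous system, where the edited form of GluA2 limits calcium entry. NMDA receptors combine the obligatory subunit GluN1, encoded by Grin1, with GluN2 subunits (Grin2a to Grin2d), which set the kinetics and the magnesium block of the channel, and in some cells with GluN3 subunits. Channels with GluN2 subunits pass current when glutamate and membrane depolarisation coincide. In the spinal cord these receptors serve transmission from sensory afferents and descending axons and the rhythm of locomotor circuits, and AMPA receptor subunits are also found in oligodendrocyte precursors and astrocytes.

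The study measured RNA in 32 libraries from C57BL/6J mice of 8 to 12 weeks, each from the cord segment around the lesion or injection. Sham cords, whose labels name no injected agent, were taken at 3 and 35 days (n = 3 each), with no sham group at 14 days. Cords with a spinal cord injury (SCI) carried a control treatment (SCI+Ctrl, n = 3, 3 and 4 at 3, 14 and 35 days), Gsx1 (SCI+Gsx1, n = 3, 3 and 4 at the same times) or Nkx6.1 (SCI+Nkx6.1, n = 3 each at 3 and 35 days). Both factors are homeodomain proteins that pattern neural progenitors, and the series title concerns Gsx1 and recovery of locomotion. Lesion and control treatment cannot be told apart in a comparison of SCI+Ctrl with sham. The sources used here do not give the control agent or the way the factors were delivered. The labels do not state whether each replicate is its own animal, and the p-values therefore cover only the spread among libraries, which may be technical.

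Libraries held 10823632 to 19512107 counts in total. Markers of myelinating oligodendrocytes summed to 19220 to 40266 CPM (counts per 1000000 counts of the library, scaled with TMM factors) and the 16 pan-neuronal genes to 2347 to 9401 CPM over all libraries, so the labelled tissue was present in each. Xist exceeded 100 CPM in 7 libraries, namely sham replicates 1 and 2 and SCI+Ctrl replicate 1 at 3 days, and sham replicate 3, SCI+Ctrl replicates 1 and 4 and SCI+Nkx6.1 replicate 2 at 35 days. Of these, sham replicate 1 at 3 days and SCI+Ctrl replicate 4 at 35 days were also high in the Y-linked gene Ddx3y. Some results that rest on these libraries are given with and without them, and others only with them. The latter include SCI+Nkx6.1 against SCI+Ctrl at 35 days, either factor against sham at 35 days, and the counts of cell type markers.

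The members lie on different chromosomes except Gria1 and Grin2c, which share chromosome 11 (GRCm38, GENCODE annotation). Gria1 (ENSMUSG00000020524) spans chr11:57011387-57330244, plus strand, Gria2 (ENSMUSG00000033981) chr3:80681450-80802835, minus strand, Gria3 (ENSMUSG00000001986) chrX:41400854-41678601, plus strand, and Gria4 (ENSMUSG00000025892) chr9:4417896-4796234, minus strand. Grin1 (ENSMUSG00000026959) spans chr2:25291181-25319187, minus strand, and an antisense gene, Grin1os, overlaps it. Grin2a (ENSMUSG00000059003) spans chr16:9567898-9995560, minus strand, Grin2b (ENSMUSG00000030209) chr6:135713233-136173511, minus strand, and Grin2c (ENSMUSG00000020734) chr11:115249169-115267243, minus strand. Grin2d (ENSMUSG00000002771) spans chr7:45831883-45878378, minus strand and overlaps Kdelr1 on the other strand, and Grin3a (ENSMUSG00000039579) spans chr4:49661611-49845744, minus strand and holds the gene Ppp3r2 within it. Because the sources used here do not give the strand setting of the counting, reads of Grin1, Grin2b and Grin2d cannot be told apart from those of the genes on the opposite strand.

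Promoter windows of RefSeq (GRCm38.p6, 250 bases before to 50 after the annotated start) were available for 5 of the 10 members. The windows of Gria2, Gria4, Grin1 and Grin2d are shown because these 4 genes were called lower after injury at both times tested, which Grin2c, the fifth, was not, and capitals mark the motifs searched on both strands. The motifs were GGGCGG, found in 35.7% of all 32851 windows of this length, CACGTG, found in 7.15%, and TATAAA, found in 13.6%.
Gria2, chr3:80802786-80803085, minus strand: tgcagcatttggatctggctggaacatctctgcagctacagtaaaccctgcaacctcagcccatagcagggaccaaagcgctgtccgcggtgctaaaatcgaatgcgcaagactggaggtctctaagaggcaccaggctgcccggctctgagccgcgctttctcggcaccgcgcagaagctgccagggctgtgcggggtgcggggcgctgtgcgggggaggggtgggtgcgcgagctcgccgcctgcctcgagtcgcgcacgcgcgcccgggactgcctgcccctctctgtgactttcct
Gria4, chr9:4796185-4796484, minus strand: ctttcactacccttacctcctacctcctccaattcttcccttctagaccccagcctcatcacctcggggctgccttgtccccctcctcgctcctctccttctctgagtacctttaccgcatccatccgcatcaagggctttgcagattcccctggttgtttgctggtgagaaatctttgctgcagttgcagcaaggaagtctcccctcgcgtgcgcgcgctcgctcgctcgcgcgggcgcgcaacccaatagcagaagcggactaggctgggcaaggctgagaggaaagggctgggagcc
Grin1, chr2:25319138-25319437, minus strand: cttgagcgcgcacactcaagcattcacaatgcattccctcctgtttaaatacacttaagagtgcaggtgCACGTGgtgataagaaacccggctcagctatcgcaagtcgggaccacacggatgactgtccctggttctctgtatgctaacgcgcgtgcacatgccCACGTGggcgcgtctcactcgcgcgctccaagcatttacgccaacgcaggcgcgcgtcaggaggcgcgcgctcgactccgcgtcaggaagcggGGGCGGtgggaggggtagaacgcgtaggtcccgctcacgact
Grin2d, chr7:45866632-45866931, minus strand: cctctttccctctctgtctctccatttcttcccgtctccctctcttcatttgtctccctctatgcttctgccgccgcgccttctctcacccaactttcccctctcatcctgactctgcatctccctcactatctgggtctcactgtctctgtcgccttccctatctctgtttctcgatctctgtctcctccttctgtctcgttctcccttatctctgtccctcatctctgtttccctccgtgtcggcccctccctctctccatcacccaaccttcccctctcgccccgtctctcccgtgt

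The Grin1 window held CACGTG at 2 places and GGGCGG at 1 place, whereas none of the 3 motifs occurred in the windows of Gria2, Gria4 and Grin2d. The window of Grin2c held GGGCGG at 3 places. The 4 windows shown had a G and C content of 65.7% (Gria2), 59.7% (Gria4), 60.7% (Grin1) and 56.0% (Grin2d), against a median of 52.7% over all windows. They held 26, 17, 33 and 12 CpG dinucleotides, against a median of 7. These matches describe the letters of the windows and nothing about the factors that bind there. The Grin2d window was set by a RefSeq start that lies inside the GENCODE span of the gene (chr7:45831883-45878378, minus strand). The other windows shown lie at the start of their GENCODE spans.

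In uninjured cord the obligatory NMDA subunit and the AMPA subunits led the levels per exonic length. At 3 days after the sham operation Grin1 stood at 45.2 ± 2.51 CPM per kb (SD, n = 3), followed by Gria4 at 32.8 ± 2.73 and Gria1 at 27.6 ± 1.32. Gria2 stood at 18.3 ± 1.54 and Gria3 at 14.7 ± 0.380 CPM per kb. The AMPA subunits were therefore ordered Gria4, Gria1, Gria2 and Gria3, each step being larger than the SD of its neighbours.

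The GluN2 genes differed widely in level. Grin2d and Grin2c stood at 7.98 ± 0.361 and 5.92 ± 0.607 CPM per kb (SD, n = 3), with Grin3a, which encodes the modulatory subunit GluN3A, between them at 6.65 ± 0.785. Grin3a and Grin2c did not differ beyond their spread. Grin2b and Grin2a, the subunits that predominate in forebrain, stood at 0.720 ± 0.112 and 0.585 ± 0.0514 CPM per kb. The order depends on the gene model: per length of the longest transcript, Grin3a (10.9 ± 1.29) and Grin2d (9.79 ± 0.442) lay within their spread, and so did Gria2 and Gria3 (27.5 ± 2.31 and 27.8 ± 0.720), below Gria1 at 30.0 ± 1.44.

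The counts behind these levels set the precision of each gene. Grin1 had 1525 to 7552 counts per library and a biological coefficient of variation of 24.2%. Grin2a had 6 to 182 counts and a coefficient of 55.9%, the widest of the members, and Grin2b had 53 to 275 counts and 21.1%.

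**Figure D1:**
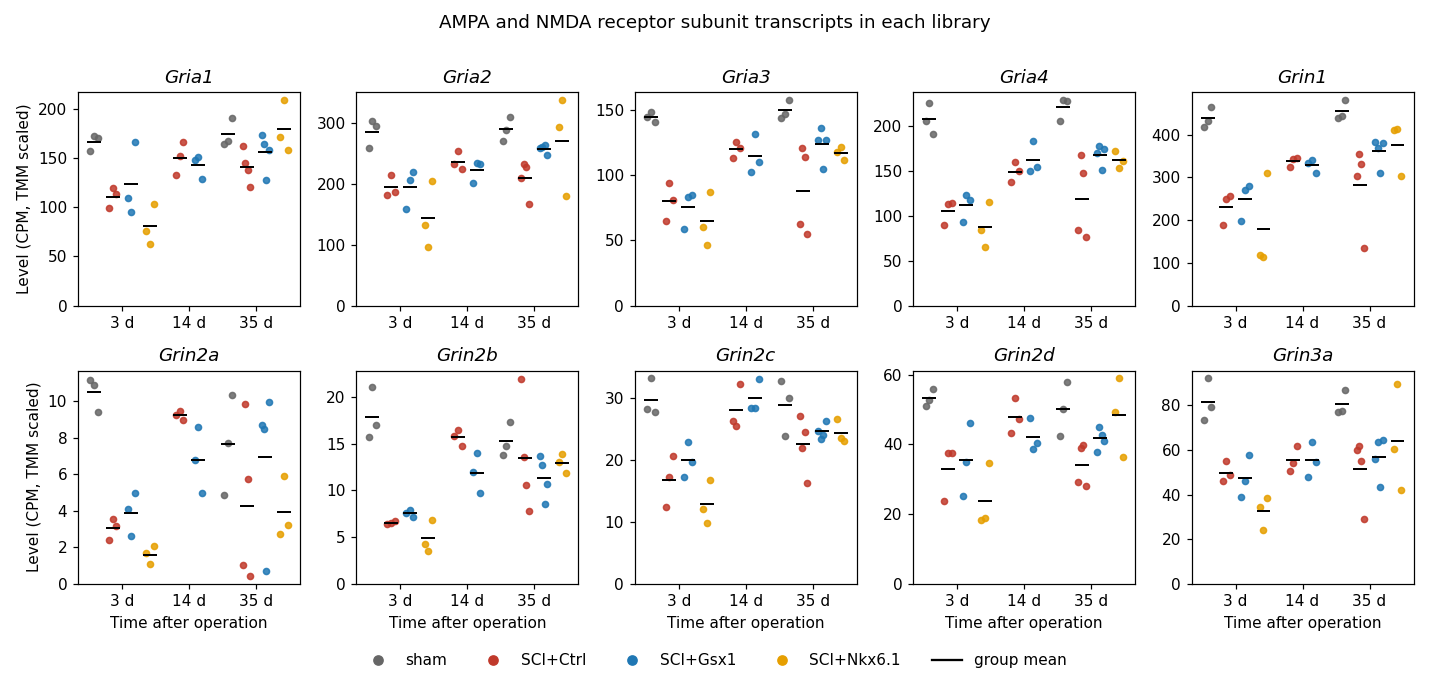
Level of each subunit transcript (CPM, TMM scaled, linear axes from 0) in each of the 32 libraries by time, coloured by group, with group means as bars. In all 10 panels the 3 SCI+Ctrl libraries at 3 days lie below the 3 sham libraries, and the 4 SCI+Ctrl libraries at 35 days spread widely for Gria3, Gria4, Grin1 and Grin2a.

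Over the 10 groups the order of the levels was similar for most members. The lowest of the 10 group means was that of SCI+Nkx6.1 at 3 days for all 10 members, and the sham groups held the 2 highest means for 6 of them (Gria2, Gria3, Gria4, Grin1, Grin2d and Grin3a). Grin1 ranged from 455 ± 22.6 (SD, n = 3) CPM in sham at 35 days to 180.4 ± 113 (SD, n = 3) CPM in SCI+Nkx6.1 at 3 days. Between these lay sham at 3 days, SCI+Nkx6.1 and SCI+Gsx1 at 35 days (376 ± 63.0 and 361 ± 33.9 CPM), SCI+Ctrl and SCI+Gsx1 at 14 days (338 ± 12.1 and 328 ± 16.0 CPM), SCI+Ctrl at 35 days (281 ± 100.02 CPM) and SCI+Gsx1 and SCI+Ctrl at 3 days (249 ± 45.0 and 232 ± 37.3 CPM). Each group differed from the next in this order by less than the larger SD of the pair.

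Some members departed from this order. Gria1 had its highest mean in SCI+Nkx6.1 at 35 days (179.8 ± 26.5 (SD, n = 3) CPM), next to 174 ± 14.9 CPM in sham at 35 days, a difference within the spread. Grin2c had 30.0 ± 2.75 CPM in SCI+Gsx1 and 28.1 ± 3.67 CPM in SCI+Ctrl at 14 days, within the spread of the 29.8 ± 3.06 CPM of sham at 3 days. Grin2a and Grin2b had their second highest mean in SCI+Ctrl at 14 days, at 9.24 ± 0.234 and 15.6 ± 0.890 CPM (SD, n = 3 each).

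At 3 days after injury the transcripts of every subunit were lower than in sham cord. All 10 members fell in SCI+Ctrl against sham (edgeR quasi-likelihood test, Benjamini-Hochberg adjusted p under 0.05 over 16314 genes), where 16.0% of all genes tested were called lower. Their median log2 fold change was -0.84, against 0.01 over all genes. For all 10 the highest SCI+Ctrl library lay below the lowest sham library, as groups did without overlap for 55.6% of all genes in either direction. In bulk tissue, fewer cells of a type and less RNA per cell cannot be told apart.

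Among the AMPA subunits, Gria4, which encodes the fast-gating GluA4, had 205, 225 and 191 CPM in the sham libraries at 3 days and 89.1, 113 and 114 CPM in the SCI+Ctrl libraries. The groups were well apart, and each injured value was lower than every sham value. Gria4 fell to 50.8% of the sham level, a log2 fold change of -0.98 ± 0.21 (SE) at an edgeR adjusted p of 0.00104. Gria3, which encodes GluA3 and lies on the X chromosome, had 145, 148 and 141 CPM in sham and 65.0, 94.2 and 80.8 CPM in SCI+Ctrl. The sham libraries were close together and the injured ones more spread, without overlap. Gria3 fell, with a log2 fold change of -0.85 ± 0.23 (SE) at an edgeR adjusted p of 0.00510.

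The falls of the other AMPA genes were smaller. Gria1, which encodes GluA1, had 157, 172 and 169.9 CPM in sham and 99.2, 119 and 114 CPM in SCI+Ctrl, and Gria2, which encodes the subunit that limits calcium entry, had 258, 303 and 294 and 181, 214 and 187 CPM. Both were lower in every injured library. The log2 fold changes were -0.59 ± 0.17 (SE) for Gria1 (edgeR adjusted p = 0.0104) and -0.55 ± 0.20 (SE) for Gria2 (adjusted p = 0.0303).

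Among the NMDA subunits, Grin1 had 419, 432 and 466 CPM in sham and 189, 249 and 257 CPM in SCI+Ctrl at 3 days. The lowest sham library was well above the highest injured one, and Grin1 fell, with a log2 fold change of -0.92 ± 0.28 (SE) at an edgeR adjusted p of 0.0139. Grin2b, whose product gives slow NMDA currents and is the main GluN2 partner in early development, had 15.7, 21.0 and 17.0 CPM in sham and 6.42, 6.49 and 6.70 CPM in SCI+Ctrl. The 3 injured libraries lay almost at the same value, far below sham. Grin2b fell to 36.6% of the sham level, a log2 fold change of -1.45 ± 0.26 (SE), with the smallest adjusted p among the members (edgeR adjusted p = 0.000154).

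Grin2a, the subunit of mature fast NMDA currents, had 11.2, 10.9 and 9.43 CPM in sham and 2.42, 3.56 and 3.16 CPM in SCI+Ctrl. The 2 groups were far apart, but the counts were few. Its log2 fold change was -1.78 ± 0.68 (SE), with a 95% interval of -3.18 to -0.37 (edgeR adjusted p = 0.0441). Grin2c, Grin2d and Grin3a fell from 29.8 ± 3.06, 53.2 ± 2.40 and 81.6 ± 9.64 CPM to 16.8 ± 4.15, 33.0 ± 7.96 and 49.9 ± 4.48 CPM (SD, n = 3 each). Their log2 fold changes were -0.83 ± 0.19 (SE), -0.69 ± 0.23 (SE) and -0.71 ± 0.24 (SE), with edgeR adjusted p of 0.00168, 0.0200 and 0.0216.

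The direction of all 10 members at 3 days held in every alternative run, while the number called did not. It was 3 without SCI+Ctrl replicate 1 (Gria4, Grin2b and Grin2c), where 6.43% of all genes were called lower, and 6 without sham replicate 2, where 9.51% were. Among libraries low in Xist, which left 1 sham and 2 SCI+Ctrl libraries, it was 2 (Gria4 and Grin2b), where 2.35% of all genes were called lower. The lone sham library was assumed there to vary like the other groups.

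At 35 days the members were again lower in SCI+Ctrl than in sham by their point estimates, with fewer calls and more spread. The estimate of Grin2b turned to 0.02 without the libraries high in both Xist and Ddx3y, and that of Grin2a turned to 0.33 among libraries low in Xist. Of the 10, 6 fell (Gria2, Gria3, Gria4, Grin1, Grin2d and Grin3a), where 15.5% of all genes were called lower by the same edgeR test, and the median log2 fold change of the members was -0.60, against 0.04 over all genes. The groups did not overlap for 7 of the 10 members, and for 38.4% of all genes.

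Gria4 had 205, 229 and 227 CPM in the sham libraries and 83.9, 168, 147 and 76.3 CPM in SCI+Ctrl replicates 1 to 4. Replicates 1 and 4, the libraries high in Xist, were the low ones, and the other 2 lay between them and sham. Gria4 fell, with a log2 fold change of -0.89 ± 0.19 (SE) at an edgeR adjusted p of 0.00119. Gria3 split in the same way, with 144, 147 and 158 CPM in sham and 62.6, 121, 114 and 55.1 CPM in SCI+Ctrl replicates 1 to 4, and its log2 fold change was -0.76 ± 0.21 (SE) (edgeR adjusted p = 0.00681). The same 2 libraries had the highest summed markers of microglia and macrophages of their group (2883 and 3185 CPM, against 1603 and 1851 CPM in replicates 2 and 3), whose part in the split was not tested. Sham replicate 3, also high in Xist, lay between the other sham libraries for Gria4 and Grin2c. For the other members, Gria3 among them, it was the highest sham library.

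Grin1 had 439, 445 and 481 CPM in sham and 302, 356, 332 and 135 CPM in SCI+Ctrl at 35 days, and here replicate 4 alone was far below the rest. Grin1 fell, with a log2 fold change of -0.69 ± 0.26 (SE) at an edgeR adjusted p of 0.0396. Gria2 and Grin3a fell from 289 ± 19.8 and 80.4 ± 5.48 CPM (SD, n = 3) to 209 ± 29.6 and 51.5 ± 15.1 CPM (SD, n = 4). Grin2d had 42.5, 50.2 and 57.8 CPM in sham and 29.2, 38.9, 39.8 and 28.0 CPM in SCI+Ctrl. For all 3 the groups did not overlap. The log2 fold changes were -0.47 ± 0.18 (SE) for Gria2, -0.64 ± 0.22 (SE) for Grin3a and -0.56 ± 0.21 (SE) for Grin2d (edgeR adjusted p = 0.0464, 0.0246 and 0.0382).

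The 4 members not called at 35 days were Gria1, Grin2a, Grin2b and Grin2c. Gria1 had 164, 167 and 191 CPM in sham and 162, 145, 138 and 120.2 CPM in SCI+Ctrl, without overlap, and a log2 fold change of -0.30 ± 0.16 (SE) at an edgeR adjusted p of 0.144. Grin2b had 13.8, 14.8 and 17.3 CPM in sham and 21.9, 13.6, 10.6 and 7.81 CPM in SCI+Ctrl replicates 1 to 4, so that replicate 1 was the highest and replicate 4 the lowest of all 7 libraries. Its log2 fold change was -0.18 ± 0.24 (SE) with a 95% interval of -0.67 to 0.30 (edgeR adjusted p = 0.561). It was 0.00421 without SCI+Ctrl replicate 4 and 0.0175 without the libraries high in both Xist and Ddx3y, which include that replicate. The log2 fold change of Grin2c was -0.36 ± 0.18 (SE) (adjusted p = 0.108).

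Grin2a ranged most widely at 35 days, with 4.85, 7.72 and 10.3 CPM in sham and 1.03, 9.85, 5.75 and 0.446 CPM in SCI+Ctrl replicates 1 to 4. SCI+Ctrl replicates 1 and 4 were near 0 and replicate 2 was close to the highest sham library. Its log2 fold change was -0.82 ± 0.62 (SE) with a 95% interval of -2.10 to 0.45 (edgeR adjusted p = 0.302), so a change was not detectable at this depth and spread. Among libraries low in Xist, which leave 2 sham and 2 SCI+Ctrl libraries, it was 0.33.

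The calls at 35 days rested on the pooled spread of all groups and on single libraries. With the 2 compared groups alone in the fit the count was 0 (edgeR adjusted p = 0.0661 for Gria4), where 1.87% of all genes were called lower. Among libraries low in Xist it was 0 (log2 fold change of Gria4 -0.45 and of Gria3 -0.29), where 0.548% were. It was 2 (Gria3 and Gria4) without SCI+Ctrl replicate 4 or without sham replicate 3, where 6.90% and 6.84% of all genes were called lower. It was 3, Gria3 and Gria4 among them, without SCI+Ctrl replicate 1, sham replicate 1 or sham replicate 2, where 12.8%, 10.5% and 10.6% were.

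**Figure D2:**
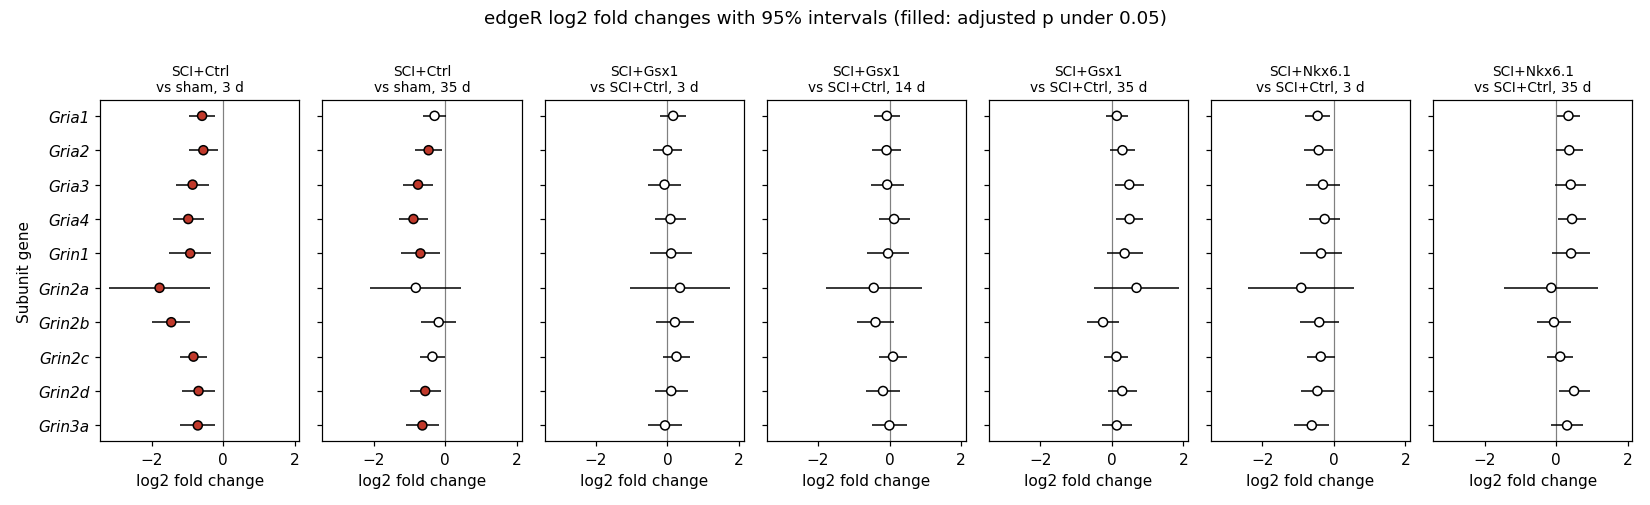
edgeR log2 fold change of each subunit (points, with 95% intervals as lines) in 7 comparisons, filled where the adjusted p was under 0.05. Filled points appear for all 10 members in SCI+Ctrl against sham at 3 days and for 6 at 35 days, and for none with Gsx1 or Nkx6.1 against SCI+Ctrl.

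At 14 days SCI+Ctrl cords had no sham group of their own time. Grin2b had 15.8, 16.5 and 14.7 CPM at 14 days, all above the 6.42, 6.49 and 6.70 CPM at 3 days, and Grin2a had 9.26, 9.47 and 9.00 CPM. Gria4 stood at 149 ± 10.9 (SD, n = 3) and Grin1 at 338 ± 12.1 (SD, n = 3) CPM at 14 days, both below the levels of either sham group. Grin3a had group means close to each other over time, with 49.9 ± 4.48, 55.5 ± 5.69 and 51.5 ± 15.1 CPM (SD, n = 3, 3 and 4) at 3, 14 and 35 days.

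Between 3 and 35 days 1 member, Grin2b, rose in SCI+Ctrl cords, in a comparison in which 11.0% of all genes changed by the edgeR test. Its log2 fold change was 1.04 ± 0.25 (SE) (edgeR adjusted p = 0.00769), and every SCI+Ctrl library at 35 days exceeded every one at 3 days. The 2 groups did not overlap for 2 of the 10 members and for 18.4% of all genes in either direction. The call of Grin2b was lost without SCI+Ctrl replicate 1 at 35 days (7.72% of all genes called), among libraries low in Xist (1.97%) and with the 2 groups alone in the fit (2.95%). In sham cords 0 members changed between 3 and 35 days (0 also at an unadjusted p under 0.05 and by DESeq2), where 0.00613% of all genes were called. Without adjustment, 1171 of all 16314 genes tested were under 0.05 by edgeR. The change of the injury effect from 3 to 35 days was called for 0 members by edgeR, where 0.362% of all genes were called. It reached an unadjusted p under 0.05 for 1 member, Grin2b (log2 difference 1.27 ± 0.35 (SE), edgeR adjusted p = 0.127), which DESeq2 called (adjusted p = 0.0438) along with 1.41% of all genes. An unadjusted edgeR p under 0.05 was reached there by 1563 of all 16314 genes tested.

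Gsx1 was compared with SCI+Ctrl at each time, and 0 members were called at 3, 14 or 35 days. The share of all genes called was likewise 0% at 3 days, 0% at 14 days and 0% at 35 days by the edgeR test, and DESeq2 called 0 members at each time. An unadjusted p under 0.05 was reached by 0 members at 3 days, 0 at 14 days and 2 at 35 days. Of all 16314 genes tested, 338 reached it at 3 days, 960 at 14 days and 3077 at 35 days.

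At 35 days 9 of the 10 members had a positive log2 fold change with Gsx1, with a median of 0.30, against -0.03 over all genes. Gria4 had 169.8, 178, 150.3 and 174 CPM in the SCI+Gsx1 libraries, against the 83.9, 168, 147 and 76.3 CPM of SCI+Ctrl, and Gria3 had 127, 137, 105 and 127 CPM against 62.6, 121, 114 and 55.1 CPM. For both genes SCI+Ctrl replicates 1 and 4 lay far below every SCI+Gsx1 library, and replicates 2 and 3 lay within or just below the SCI+Gsx1 range. The log2 fold changes were 0.50 ± 0.18 (SE) for Gria4 (95% interval 0.12 to 0.87, edgeR adjusted p = 0.201) and 0.49 ± 0.20 (SE) for Gria3 (95% interval 0.09 to 0.89, adjusted p = 0.218). All SCI+Gsx1 libraries were low in Xist, and among libraries low in Xist, which leave 2 SCI+Ctrl libraries, these values were 0.09 for Gria4 and 0.07 for Gria3. Without SCI+Ctrl replicate 2 the count was 2, with Gria3 and Gria4 higher, where 4.44% of all genes were called higher and 7.04% lower.

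Gria2 was the one member whose groups did not overlap at 35 days, with 259, 259.9, 263 and 248 CPM in SCI+Gsx1 and 209.9, 232, 227 and 167 CPM in SCI+Ctrl (log2 fold change 0.30 ± 0.17 (SE), edgeR adjusted p = 0.323). Groups did not overlap for 4.37% of all genes in this comparison. Grin2b was the one member with a negative estimate, with 13.6, 12.7, 8.48 and 10.7 CPM in SCI+Gsx1 and a log2 fold change of -0.24 ± 0.22 (SE) (95% interval -0.70 to 0.21), which turned to 0.11 without SCI+Ctrl replicate 1. Grin2a had 8.69, 8.47, 0.727 and 9.97 CPM in SCI+Gsx1, where replicate 3 stood far below the other 3.

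At 3 and 14 days Grin2b and, at 14 days, Grin2a were the members whose SCI+Gsx1 and SCI+Ctrl libraries did not overlap. Groups did not overlap for 7.50% of all genes at 3 days and for 15.9% at 14 days. The members' log2 fold changes ranged from -0.08 to 0.35 at 3 days (median 0.10) and from -0.44 to 0.13 at 14 days (median -0.07). Grin2b had 7.57, 7.93 and 7.17 CPM at 3 days, all above the SCI+Ctrl libraries, and 12.0, 14.0 and 9.71 CPM at 14 days, all below the 15.8, 16.5 and 14.7 CPM of SCI+Ctrl. Its log2 fold change was 0.21 ± 0.26 (SE) at 3 days and -0.39 ± 0.25 (SE) at 14 days, with 95% intervals of -0.33 to 0.75 and -0.91 to 0.13. Grin2a had 6.77, 8.61 and 4.99 CPM in SCI+Gsx1 at 14 days, all below the 9.26, 9.47 and 9.00 CPM of SCI+Ctrl. Its mean was 73.6% of that of SCI+Ctrl, with a log2 fold change of -0.44 ± 0.65 (SE) and a 95% interval of -1.78 to 0.89.

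Nkx6.1 against SCI+Ctrl gave 0 called members at 3 days, where 0.337% of all genes were called by the edgeR test, and 3 members reached an unadjusted p under 0.05. So did 2984 of all 16314 genes tested. All 10 members had a negative estimate (median -0.42). Grin1 had 117, 113 and 311 CPM in SCI+Nkx6.1 replicates 1 to 3, and Gria2 had 133, 96.8 and 204 CPM. Replicates 1 and 2 were low for both genes and replicate 3 was near or above the SCI+Ctrl libraries. The log2 fold changes of the 3 members with the smallest p were -0.46 ± 0.17 (SE) for Gria1, -0.62 ± 0.24 (SE) for Grin3a and -0.43 ± 0.20 (SE) for Gria2 (edgeR adjusted p = 0.178, 0.182 and 0.256).

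In SCI+Nkx6.1 replicates 1 and 2 at 3 days the mean log2 CPM of the pan-neuronal genes was 6.71 and 6.60, the lowest of all 32 libraries, against 7.65 in replicate 3. Their markers of microglia and macrophages summed to 5611 and 6036 CPM, the highest of all libraries, against 3444 CPM in replicate 3. The part of these differences in the members' values was not tested. Without replicate 3 the count of called members was 5, all lower (Gria1, Gria2, Grin1, Grin2c and Grin2d), where 8.90% of all genes were called lower.

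At 35 days Nkx6.1 against SCI+Ctrl also gave 0 called members, where 0% of all genes were called. An unadjusted p under 0.05 was reached by 2006 of all 16314 genes tested and by 3 members. These members were Grin2d (0.50 ± 0.21 (SE)), Gria4 (0.45 ± 0.20 (SE)) and Gria1 (0.35 ± 0.16 (SE)), with positive log2 fold changes and edgeR adjusted p of 0.376, 0.385 and 0.394. Gria4 had 172, 153 and 161 CPM in SCI+Nkx6.1, against 83.9, 168, 147 and 76.3 CPM in SCI+Ctrl replicates 1 to 4. SCI+Ctrl replicates 1 and 4, high in Xist, were also the lowest of their group for Grin2d (29.2 and 28.0 CPM). For Gria1 replicate 1 was the highest of its group (162 CPM). Estimates without these libraries are not given for this comparison. DESeq2 called 0 members at either time. Grin3a had 60.3, 89.4 and 42.0 CPM in replicates 1 to 3, and so overlapped with both sham and SCI+Ctrl.

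Cords with either factor were also set against sham. These comparisons share the sham libraries with those of SCI+Ctrl, and at each time with each other. At 3 days 8 of 10 members fell in SCI+Gsx1, where 17.4% of all genes were called lower by edgeR. The largest fall by adjusted p was that of Grin2b (log2 fold change -1.24 ± 0.26 (SE), edgeR adjusted p = 0.000561), and Gria1 and Grin2a missed the threshold (adjusted p = 0.0520 and 0.0943). The count was 3 (Gria3, Gria4 and Grin2b) without sham replicate 2 or without SCI+Gsx1 replicate 1, where 10.8% and 9.43% of all genes were called lower, and 5 without sham replicate 3, where 12.8% were. Among libraries low in Xist it was 4, where 8.92% of all genes were called lower. That comparison has 1 sham library, replicate 3, against 3 SCI+Gsx1 libraries, and the spread of the sham arm was taken from the other groups. At 3 days all 10 members fell in SCI+Nkx6.1, where 26.4% of all genes were called lower. Their median log2 fold change was -1.22, and those of Grin2a and Grin2b were -2.69 ± 0.72 (SE) and -1.86 ± 0.27 (SE) (edgeR adjusted p = 0.00263 and 2.88e-06).

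At 35 days 0 members were called lower than sham in SCI+Gsx1, where 1.17% of all genes were, and 0 in SCI+Nkx6.1, where 0.821% of all genes were. DESeq2 called 0 in both, and 1 member in each reached an unadjusted edgeR p under 0.05. Of all 16314 genes tested, 4078 reached it with Gsx1 and 3420 with Nkx6.1. All 10 estimates were negative for SCI+Gsx1 (median -0.27) and 9 of 10 for SCI+Nkx6.1 (median -0.26). The member with the smallest p was Grin3a with Gsx1 (-0.50 ± 0.22 (SE), edgeR adjusted p = 0.154) and Gria4 with Nkx6.1 (-0.44 ± 0.21 (SE), adjusted p = 0.223). Gria4 with Gsx1 had a log2 fold change of -0.39 ± 0.19 (SE) with a 95% interval of -0.79 to 0.01. With only the compared groups in the fit, 3 members (Gria4, Grin1 and Grin3a) were called lower with Gsx1, where 8.66% of all genes were, and 2 (Gria3 and Gria4) with Nkx6.1, where 3.86% were.

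General neuronal genes were lower in the same comparisons. Of 16 pan-neuronal genes, 11 fell and 0 rose at 3 days after injury (median log2 fold change -0.87), and 10 fell and 0 rose at 35 days (median -0.70). Of all 16314 genes tested, 3174 rose and 2614 fell at 3 days after injury. At 3 days the microglia and macrophage markers rose for 8 of 9 genes and summed to 1721 to 2811 CPM in SCI+Ctrl, against 237 to 275 CPM in sham. The astrocyte markers rose for 4 of 8 genes and summed to 10647 to 12407 CPM, against 6418 to 7537 CPM. Markers of oligodendrocyte precursors, which also carry AMPA receptors, rose for 3 of 8 genes and summed to 1238 to 1301 CPM in SCI+Ctrl, against 901 to 936 CPM in sham. Endothelial markers rose for 4 of 5 genes and summed to 378 to 460 CPM, against 230.0 to 250.3 CPM. Of the Schwann cell markers 1 of 5 rose, and their sums overlapped, at 308 to 1045 CPM in SCI+Ctrl and 373 to 580.2 CPM in sham. Of the 8 genes of myelinating oligodendrocytes 1 rose and 1 fell. Markers of skeletal muscle rose for 6 of 8 genes, but their sums overlapped. They were 21.7, 3.31 and 303 CPM in SCI+Ctrl replicates 1 to 3, against 3.42 to 4.76 CPM in sham, where Tnnc2 was at 0. No other marker of these lists was at 0 in all libraries of these groups.

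At 35 days after injury markers of other cells were again higher. Of all 16314 genes tested, 3481 rose and 2528 fell at this time. The microglia and macrophage markers rose for 8 of 9 genes and summed to 1603 to 3185 CPM in SCI+Ctrl, against 214 to 238 CPM in sham. The astrocyte markers rose for 4 of 8 genes (10096 to 15034 CPM, against 6028 to 6734 CPM) and the endothelial markers for 5 of 5 (233 to 349 CPM, against 139.7 to 155.7 CPM). Markers of Schwann cells, the myelinating cells of peripheral nerve, rose for 4 of 5 genes, with sums of 192 to 829 CPM in SCI+Ctrl and 149 to 194 CPM in sham. Of the precursor markers 3 rose and 1 fell, with overlapping sums of 811 to 1049 CPM in SCI+Ctrl and 903 to 976 CPM in sham. Of the myelinating oligodendrocyte markers 1 fell, and 0 of 8 muscle markers changed. The part of these other cell types in the lower subunit levels was not tested at either time.

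**Figure D3:**
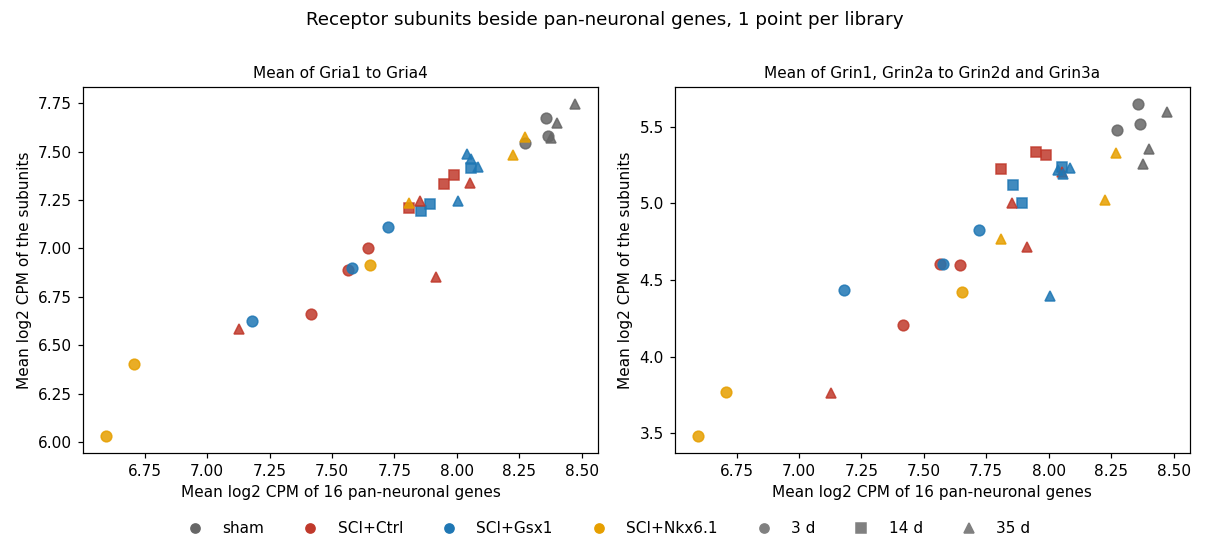
Mean log2 CPM of the AMPA subunits (left) and NMDA subunits (right) against the mean log2 CPM of 16 pan-neuronal genes, with 1 point per library, coloured by group and shaped by time. Libraries with lower neuronal genes have lower subunits, from the sham libraries at the upper right to SCI+Nkx6.1 replicates 1 and 2 at 3 days, at 6.71 and 6.60 on the x axis.

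A further edgeR fit scaled each library by its pan-neuronal genes, so that a value near 0 means a change like that of those genes. On this scale 1 member changed at 3 days after injury, where 62.1% of all genes were called, 10068 higher and 63 lower. The median over all genes was 0.80. The median of the members was -0.06. Grin2b was lower than the neuronal scale by a log2 difference of -0.66 ± 0.23 (SE) (95% interval -1.13 to -0.18, edgeR adjusted p = 0.0181). The call was lost without sham replicate 2 (48.9% of all genes called), without SCI+Ctrl replicate 2 (58.5%), and when 16 presynaptic vesicle genes set the scale (69.8%).

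Of the other 9 members, 8 had estimates on the neuronal scale at 3 days from 0.24 ± 0.14 (SE) for Gria2 and 0.20 ± 0.17 (SE) for Gria1 to -0.19 ± 0.17 (SE) for Gria4. Grin2a, with few counts, stood at -1.004 ± 0.63 (SE), farther from 0 than Grin2b. Its 95% interval, -2.30 to 0.29, was the widest of the members and includes 0 (edgeR adjusted p = 0.161). Grin1 had -0.14 ± 0.14 (SE), with a 95% interval of -0.42 to 0.15, and stood at 0.04 on the presynaptic scale.

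At 35 days 1 member changed on the neuronal scale, where 61.8% of all genes were called, 10042 higher and 38 lower. Gria1 was higher by a log2 difference of 0.39 ± 0.16 (SE) (edgeR adjusted p = 0.0364), and Grin2b had 0.45 ± 0.22 (SE) (adjusted p = 0.0733). The count was 0 without SCI+Ctrl replicate 4 (31.0% of all genes called) or without any 1 of the sham libraries (44.3% to 51.7%). It was 2 (Gria1 and Grin2b) without SCI+Ctrl replicate 2 or 3 (67.0% and 62.0%), and 4 (Gria1, Gria2, Grin2b and Grin2c, all higher) on the presynaptic scale (75.5%). For Gsx1 against SCI+Ctrl at 35 days 0 members changed on the neuronal scale (0% of all genes called), and 1, Grin2b, reached an unadjusted p under 0.05 (-0.50 ± 0.20 (SE), edgeR adjusted p = 0.118). Grin2b was called lower there without SCI+Ctrl replicate 2, where 26.5% of all genes were, and on the presynaptic scale, where 24.0% were. In the same comparison on the neuronal scale, Gria3 and Gria4 stood at 0.23 ± 0.15 (SE) and 0.23 ± 0.15 (SE). DESeq2 was not run on the neuronal scale.

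**Figure D4:**
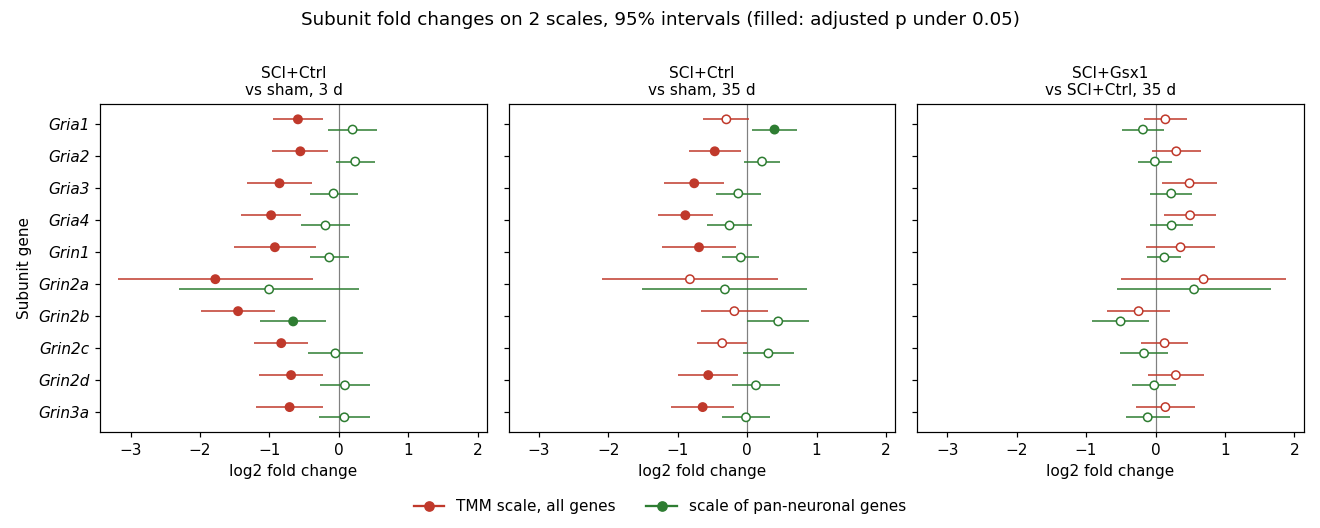
log2 fold change of each subunit with its 95% interval on the TMM scale of all genes (red) and on the scale of the pan-neuronal genes (green), filled where the adjusted p was under 0.05. On the neuronal scale the filled points are Grin2b at 3 days (-0.66) and Gria1 at 35 days (0.39) after injury.

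The composition of each receptor family was described by the share of each subunit in the summed CPM per kb of its family. In sham cord at 3 days Gria4 made up 35.1% ± 1.83 (SD, n = 3) of the AMPA transcripts per kb, Gria1 29.5% ± 1.04 (SD, n = 3), Gria2 19.6% ± 1.11 (SD, n = 3) and Gria3 15.7% ± 0.566 (SD, n = 3). Among the GluN2 genes Grin2d made up 52.6% ± 2.99 (SD, n = 3) and Grin2c 38.9% ± 2.45 (SD, n = 3). Grin2b and Grin2a made up 4.72% ± 0.508 (SD, n = 3) and 3.85% ± 0.401 (SD, n = 3). These shares depend on the gene model, as the levels do. Per length of the longest transcript, Gria2 and Gria3 stood close together in sham at 3 days, at 27.5 and 27.8 CPM per kb.

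After injury the shares of 3 AMPA genes lay apart from sham at both times, those of Gria1 and Gria2 above it and that of Gria4 below it. The shares of a family add up to a fixed total and so are not independent of each other. Gria4 made up 29.0, 29.3 and 31.6% in SCI+Ctrl at 3 days, all below the 36.2, 36.1 and 33.0% of sham. Gria1 made up 33.6, 32.4 and 33.0%, all above the 29.0, 28.9 and 30.7% of sham. At 35 days the SCI+Ctrl shares of Gria4 were 22.2, 34.2, 32.3 and 25.0% in replicates 1 to 4 and those of Gria1 were 44.8, 30.8, 31.6 and 41.1%, also without overlap with sham but with replicates 1 and 4 far from the other 2. Gria2 made up 23.9, 22.6 and 21.1% in SCI+Ctrl at 3 days, all above the 18.4, 19.8 and 20.7% of sham. Its shares at 35 days were 22.5, 19.2, 20.2 and 22.3% in SCI+Ctrl and 18.9, 19.0 and 19.2% in sham, where the lowest injured share lay just above the highest sham share. Among the GluN2 genes at 3 days, the shares of Grin2a and Grin2b were lower in every SCI+Ctrl library than in every sham library, with means of 1.97% and 3.14%. That of Grin2d was higher in every one, with 55.6, 59.1 and 55.5% in SCI+Ctrl and 52.8, 49.5 and 55.4% in sham. At 35 days the shares of all 4 GluN2 genes overlapped between the groups.

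None of 56 tests of shares (8 subunits in 7 comparisons) passed after adjustment, with a smallest adjusted p of 0.509 in the two-sided exact permutation test. The exact test cannot reach less than p = 0.1 with 3 libraries against 3, or 0.0571 with 3 against 4. With 4 against 4 its limit is 0.0286. The shares without overlap stood at the smallest p of their design. Given these limits, no outcome of the 56 tests could have passed after adjustment. The adjusted p therefore does not show whether the shares changed. The Grin2b share at 35 days, 5.18% ± 2.08 (SD, n = 4) against 4.29% ± 0.227 (SD, n = 3), rested on SCI+Ctrl replicate 1, without which the difference turned from 0.89 to -0.12 percentage points.

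**Figure D5:**
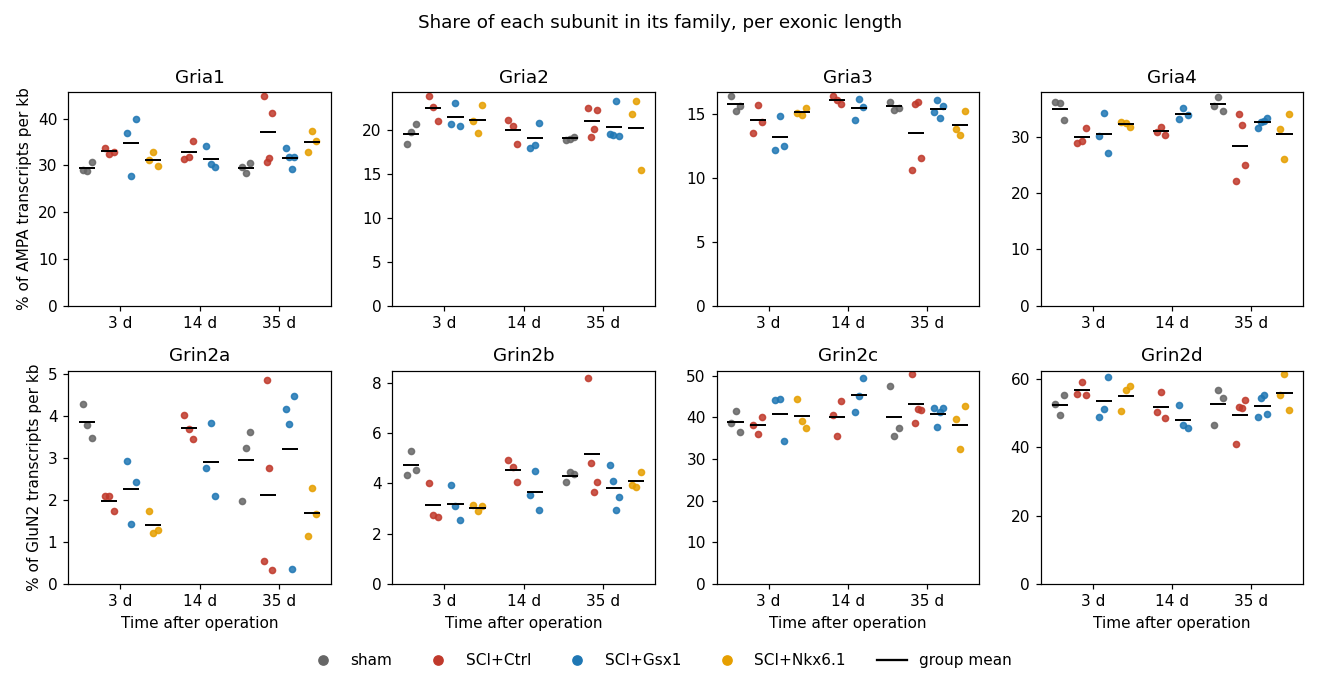
Share of each subunit in the summed CPM per kb of the 4 AMPA genes (upper row) and the 4 GluN2 genes (lower row), in percent on linear axes from 0, with 1 point per library and group means as bars. Gria4 lies lower and Gria1 and Gria2 higher in SCI+Ctrl than in sham at both times, and Grin2a lies near 0 in 3 libraries at 35 days.

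Other genes of glutamatergic transmission were counted from lists. Among all genes tested, 16.0% were called lower in SCI+Ctrl than in sham at 3 days and 15.5% at 35 days. Of 7 kainate and delta receptor genes, 2 fell and 0 rose in SCI+Ctrl against sham at 3 days (median log2 fold change -0.48), and 3 fell and 0 rose at 35 days (median -0.63). Grik4, a kainate receptor subunit, had 22.6 ± 2.55 against 32.2 ± 2.07 CPM (SD, n = 3 each) and a log2 fold change of -0.51 ± 0.15 (SE) at an edgeR adjusted p of 0.0108. Grik2, another kainate subunit, fell, with a log2 fold change of -0.50 ± 0.18 (SE) (adjusted p = 0.0348), and the delta receptor Grid1 had -0.70 ± 0.29 (SE) (adjusted p = 0.0565). All log2 fold changes of these lists are for SCI+Ctrl against sham at 3 days.

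Of the 8 metabotropic glutamate receptor genes, which signal through G proteins, 7 were tested, 5 fell at 3 days and 6 at 35 days, and 0 rose at either time. Grm7, a presynaptic autoreceptor, had 23.2 ± 2.38 against 43.7 ± 3.50 CPM (SD, n = 3 each) and a log2 fold change of -0.91 ± 0.24 (SE) at an edgeR adjusted p of 0.00487. Grm5, a postsynaptic receptor, fell, with a log2 fold change of -0.75 ± 0.23 (SE) (adjusted p = 0.0133).

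Of 17 genes of AMPA receptor auxiliary and clustering proteins, 7 fell and 0 rose at 3 days and 6 fell at 35 days. Nptx1, a secreted pentraxin that clusters AMPA receptors, had 101 ± 10.7 against 217 ± 9.24 CPM (SD, n = 3 each) and a log2 fold change of -1.09 ± 0.30 (SE) at an edgeR adjusted p of 0.00684. The regulatory subunits Cacng2 (stargazin) and Cacng3 fell, with log2 fold changes of -0.82 ± 0.22 (SE) and -1.06 ± 0.30 (SE) (adjusted p = 0.00634 and 0.00767).

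Of 20 postsynaptic scaffold and kinase genes in the table, 9 fell and 1 rose at 3 days, and 10 fell and 1 rose at 35 days. Homer3, a scaffold that links metabotropic receptors to calcium stores, was the one that rose at 3 days, with 45.0 ± 2.22 against 28.6 ± 1.35 CPM (SD, n = 3 each) and 0.66 ± 0.14 (SE) (edgeR adjusted p = 0.00105), and it rose at 35 days (0.68 ± 0.13 (SE), adjusted p = 0.000478). Dlg3 (SAP102) and Grip2, which bind NMDA and AMPA receptors respectively, fell, with log2 fold changes of -0.59 ± 0.11 (SE) and -0.78 ± 0.18 (SE) (adjusted p = 0.000245 and 0.00204).

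All 16 presynaptic vesicle genes fell at 3 days (median -0.90) and 12 at 35 days, with Vamp1, Unc13a and Syngr1 at -1.11 ± 0.25 (SE), -0.84 ± 0.20 (SE) and -0.75 ± 0.19 (SE) (edgeR adjusted p = 0.00173, 0.00280 and 0.00382). Of the pan-neuronal genes, Thy1, Vsnl1 and Snap25 fell, with log2 fold changes of -0.93 ± 0.20 (SE), -1.21 ± 0.27 (SE) and -1.10 ± 0.27 (SE) (adjusted p = 0.00109, 0.00113 and 0.00253). Without SCI+Ctrl replicate 1 the counts at 3 days were 6 presynaptic, 5 pan-neuronal, 5 scaffold and kinase, 2 auxiliary, 1 metabotropic and 0 kainate and delta genes. With Gsx1 against SCI+Ctrl at 35 days, edgeR called none of the 16314 genes tested. The median log2 fold changes of these 6 lists ran from 0.19 to 0.46 there, against -0.03 over all genes. In SCI+Ctrl replicates 1 and 4 at 35 days the presynaptic genes had mean log2 CPM of 7.78 and 6.95, against 8.34 and 8.18 in replicates 2 and 3. The part of these libraries in the list medians was not tested.

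Across the 10 group means the members followed one another, as a description of means that share their libraries. Gria2 and Grin1 were most alike (Pearson r = 0.989 of log2 CPM), followed by Gria3 and Gria4 (r = 0.985), and Grin2a was the least alike to 8 of the other 9. Among 13981 other genes with a mean of at least 1 CPM, the genes most like the AMPA mean were Cbln2, a synaptic organiser (r = 0.999), Slc32a1, the vesicular transporter of inhibitory neurons (r = 0.998), and the non-coding RNA Peg13 (r = 0.997). Among those most like the NMDA mean were Soga2 (r = 0.990) and Plekha6 (r = 0.988).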

How the data were processed

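RNA-seq counts per gene symbol were used as the authors deposited them, 1 column per library and not normalized, and 0 columns lacked a sample. The submitters' processing notes name HISAT2, SAMtools, HTSeq and DESeq2, with the builds mm10 and GRCm38, but no version. The sources used here do not give the annotation, the strand setting or the treatment of multiply mapped reads. The members and gene lists were chosen with earlier results of these data known.

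The main test was the quasi-likelihood F test of edgeR 4.0.16 (limma 3.58.1, R 4.3.3) with TMM scaling and filterByExpr (minimum count 10, minimum total 15). All 10 groups formed 1 model with 22 residual degrees of freedom, and the common coefficient of variation between libraries was 20.8%. Benjamini-Hochberg adjustment ran over 16314 genes in each of 14 comparisons, with calls at 0.05. A second fit set the library scale by the geometric mean of 16 pan-neuronal genes (Scn2a matched by its synonym Scn2a1). Of 21 scaffold and kinase symbols, 20 were in the table. CPM used TMM factors, and levels per kb used the union of GENCODE exons, while the authors' own gene models may differ in length. Shares were compared with exact permutation tests (scipy 1.17.1), adjusted over 56 tests. The named genes were all members, up to 3 genes of each list with the smallest p at 3 days after injury, and the 3 genes most like each family, of which 2 genes are not reported here. The edgeR steps were tested on simulated data.

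Alternatives were RLE and upper quartile scaling, no filter, a replicate block, Xist as a covariate, sets of libraries without those high in Xist or in both Xist and Ddx3y, only the compared groups, DESeq2 1.42.0, a presynaptic scale, the longest transcript as length, and each library left out in turn. No 2 libraries of a group agreed within counting noise (lowest chi-square per degree of freedom 3.74). Same-numbered replicates deviated together, with every pair's correlation over 0.1, in 1 of 13 comparisons, SCI+Gsx1 against sham at 3 days (0.125 to 0.283), where the replicate block left the count at 8.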

Additional observations from a re-analysis of the deposited data

Results flagged for a closer look

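Grin2a in SCI+Gsx1 replicate 3 at 35 days stood at 0.727 CPM, far from the other 3 libraries of its group, which held 8.47 to 9.97 CPM. The gap to the nearest of the others exceeded Dixon's 95% critical value for 4 samples. It was the only such value among 20 sets of 4 libraries (10 members in SCI+Ctrl and SCI+Gsx1 at 35 days), and chance alone marks about 1 set in 20. In the same library the presynaptic vesicle genes had a mean log2 CPM of 7.99 and the pan-neuronal genes 8.00, against 8.41, 8.41 and 8.43 and 8.06, 8.04 and 8.08 in replicates 1, 2 and 4. Grin2a was also near 0 in SCI+Ctrl replicates 1 and 4 at 35 days (1.03 and 0.446 CPM), where the presynaptic genes had means of 7.78 and 6.95 and the pan-neuronal genes of 7.91 and 7.13. The part of these differences in the Grin2a values was not tested.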

How the results depend on the processing

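All 10 members kept a negative log2 fold change at 3 days after injury under every alternative. At 3 days the count of called members was 2 among libraries low in Xist and 3 to 9 when 1 library was left out. At 35 days it was 3 without the expression filter, 2 without the libraries high in both Xist and Ddx3y, 0 among libraries low in Xist, 0 with only the compared groups in the fit, and 2 to 7 with 1 library left out. The log2 fold change of Grin2b at 35 days turned from -0.18 to 0.0175 without the libraries high in both, with 1 library left out it ran from -0.52 to 0.00421 (above 0 without SCI+Ctrl replicate 4), and that of Grin2a was 0.33 among libraries low in Xist. On the neuronal scale at 3 days, that of Grin1 turned from -0.14 to 0.0359 with presynaptic genes as the scale. The Grin2b share at 35 days differed by -0.12 to 1.40 percentage points with 1 library left out.

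SCI+Gsx1 against sham at 3 days gave 4 among libraries low in Xist and 3 to 8 with 1 library left out. With only the compared groups, the counts at 35 days were 3 for SCI+Gsx1 and 2 for SCI+Nkx6.1 against sham. SCI+Ctrl at 35 against 3 days gave 0 among libraries low in Xist, 0 with only the compared groups, and 0 to 2 with 1 library left out. The change of the injury effect with time gave 1 by DESeq2 and 0 to 1 with 1 library left out. SCI+Gsx1 against SCI+Ctrl at 35 days gave 0 to 2, and its Grin2b value -0.43 to 0.11, with 1 library left out, and SCI+Nkx6.1 against SCI+Ctrl at 3 days gave 0 to 5. On the presynaptic scale the counts were 0 (3 days), 4 (35 days) and 1 (Gsx1 at 35 days), and on the neuronal scale they were 0 to 1, 0 to 2 and 0 to 1 with 1 library left out. At 35 days the count on the neuronal scale was 0 without the libraries high in both. The causes of these shifts were not tested.

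Same-numbered replicates gave no general pairing (correlations of -0.47 to 0.33, and every sample was most like its own number in 1 of 13 comparisons). With the replicate block the count after injury was 10 at 3 days and 4 at 35 days, and on the neuronal scale at 35 days it was 0. Among the values of single genes, lists and shares under the alternatives, 1331 counted as unchanged. These kept their direction and side of the threshold or, for list counts, moved by at most 1.5 times. Of the other values, 187 lost the call, 24 gained one and 6 reversed, and 61 list counts moved by over 1.5 times or to or from 0. Grin2a, with as few as 6 counts in a library, and the groups of 3 or 4 libraries limit what could be detected.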
